A study of Mus musculus with 16 samples.

Results

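The dystrophin-glycoprotein complex ties the actin skeleton of a muscle cell, across its membrane, to laminin in the matrix outside. Its mRNAs were followed through 8 genes taken by name: Dmd, Utrn, Dag1, Sgca, Sgcb, Sgcd, Sspn and Dtna. All 8 were found among the 56953 genes of the count table, and 48 different splicing events of 7 of them stood in the 3 splicing tables. Left ventricles came from 16 Bl6J mice of both sexes, 4 mice in each of 4 groups, and each mouse gave 1 library of stranded, polyadenylated RNA. Each virus was given to wild-type (WT) mice and to homozygous carriers of P635L, a mutation of the cardiac splicing regulator RBM20. All animals, controls included, were 4 weeks old when they were given 1e12 viral genomes of AAV9, an adeno-associated virus that reaches the heart, through a tail vein, and their hearts were taken 12 weeks later, at 16 weeks. The virus carried either the Tnpo3 cDNA or the control construct pCAG-iCre-T2A-eGFP (Ctr), which encodes Cre recombinase and a green fluorescent protein behind the CAG promoter. No group without virus was included, the control virus was not empty, and the vector was given to the whole animal. TNPO3 is a nuclear import receptor for splicing factors, and the title of the series names a rescue of RBM20 cardiomyopathy by its overexpression as the question. Groups are named by genotype and virus, as in P635L Ctr.

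In the complex, dystrophin (Dmd) binds actin at one end and β-dystroglycan at the other. Dystroglycan, made from the single precursor encoded by Dag1, crosses the membrane and carries the sugar chain that grips laminin. The sarcoglycans, among them Sgca, Sgcb and Sgcd, form a side complex that sarcospan (Sspn) holds to dystroglycan, and α-dystrobrevin (Dtna) binds dystrophin inside the cell and recruits syntrophins. Utrophin (Utrn) is the autosomal relative of dystrophin and can take its place. Loss of dystrophin or of a sarcoglycan leads to dilated cardiomyopathy as well as muscular dystrophy.

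Libraries held 28493249 to 85922669 counts, and 18662 genes passed the filter on low counts and were tested, all 8 members among them. Tnpo3 stood at 41.6 to 49.4 CPM in the 8 Ctr libraries and at 231 to 723 CPM in the 8 Tnpo3 libraries; CPM here are library-scaled counts (edgeR's cpm with TMM factors). Of the cardiomyocyte markers, Myh6 lay at 14100 CPM or more in every library. The atrial gene Sln did not exceed 1.03 CPM and the skeletal muscle gene Myh4 did not exceed 0.0504 CPM in any library. Not all markers of these tissues were so low. The atrial gene Myl4 ran from 2.28 to 8.62 CPM and the skeletal muscle gene Tnnt3 from 0.727 to 12.3 CPM. The gene ENSMUSG00000119584, for which the tables used give no symbol, took 20% of the counts of WT Ctr replicate 2, 21.2% of WT Ctr replicate 4 and 22.7% of WT Tnpo3 replicate 4, against 5.3% or less elsewhere. Counts of Xist exceeded the summed Y-linked genes in WT Ctr replicate 4 and WT Tnpo3 replicates 2 and 4, and in none of the P635L libraries, so sex is not balanced over the genotypes.

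Per kilobase of gene length, the members fell into 2 ranges in WT Ctr hearts. Sgca, the α-sarcoglycan, had the highest level at 83.1 ± 6.76 CPM per kilobase (SD, n = 4). Sgcb followed at 43.5 ± 1.56, Dag1 at 37.3 ± 3.79 and Sspn at 30.3 ± 4.23 CPM per kilobase. Utrn (4.63 ± 2.11), Dtna (2.69 ± 0.339), Dmd (2.42 ± 1.19) and Sgcd (1.22 ± 0.286) had the lower levels. The ranges of Utrn, Dtna and Dmd overlapped, but Utrn lay above Dmd within each WT Ctr library. Utrn stood at 2.46, 5.53, 3.38 and 7.15 CPM per kilobase and Dmd at 1.35, 3.31, 1.43 and 3.58. Dtna, at 2.9, 3.05, 2.35 and 2.45, was above each of them in some libraries and below in others. Gene length counts every annotated exon once, which is 23801 bases for Dmd and 1735 for Sgca, so a gene with many alternative exons reads low on this scale.

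**Figure D1:**
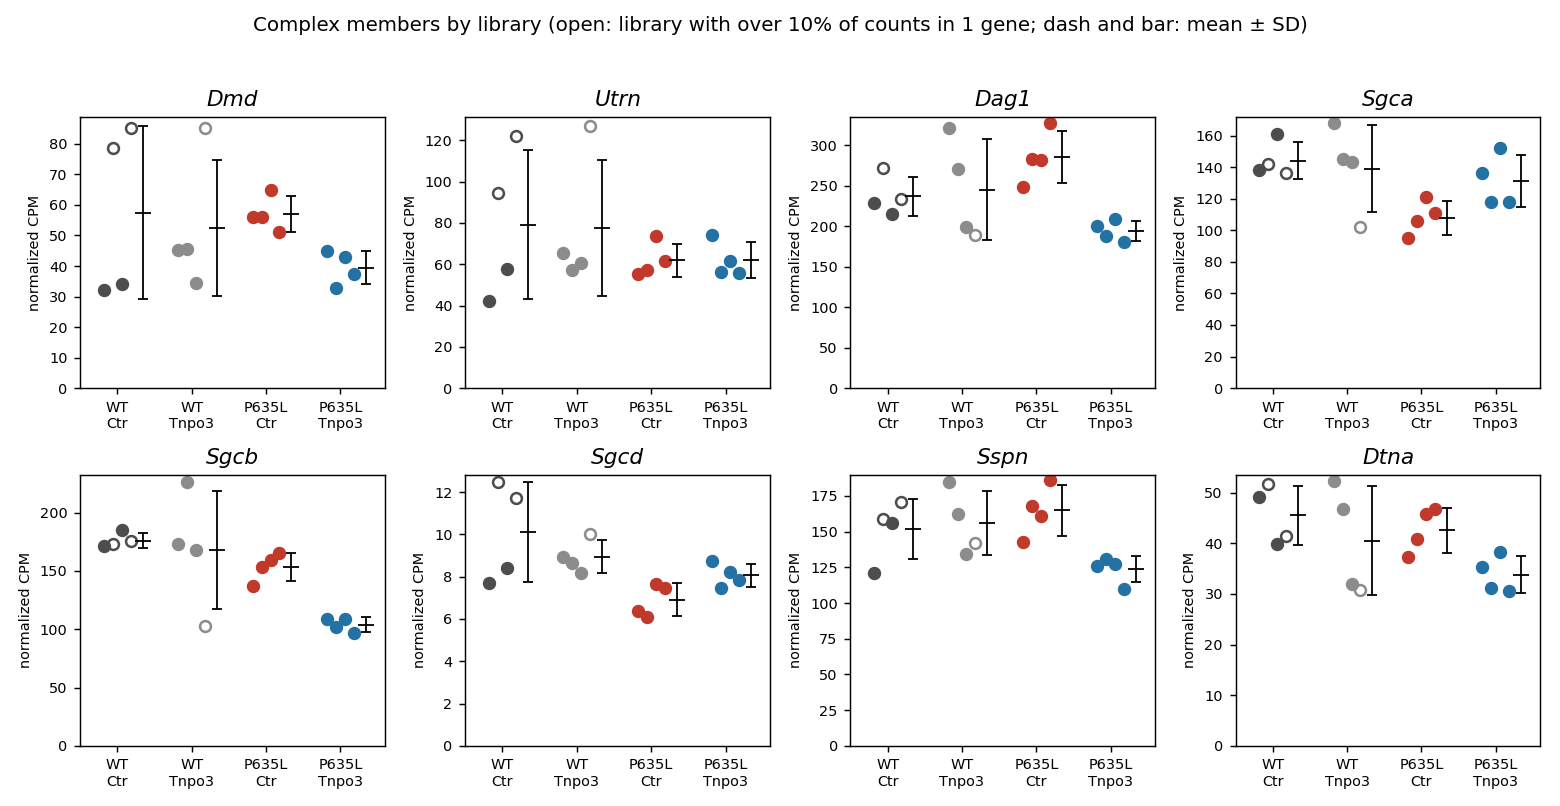
Normalized CPM of the 8 members (y axis, from 0) in the 4 groups (x axis), with 1 point per library and the group mean ± SD to the right of its points. Open points are the 3 libraries in which 1 gene held over 10% of counts, and for Dmd these lie at 78.8 to 85.1 CPM against 32.1 to 45.7 CPM in the other 5 WT libraries.

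Dmd and Utrn, the rod-shaped cytoskeletal linkers, varied more among WT mice than between groups. Dmd stood at 32.1, 78.8, 34 and 85.1 CPM in the 4 WT Ctr libraries and at 45.1, 45.7, 34.3 and 85.1 CPM in the WT Tnpo3 libraries. The 3 high values are those of the 3 libraries rich in ENSMUSG00000119584. Utrn split the same way, at 42.2, 94.7, 57.8 and 122 CPM in WT Ctr and 65.6, 57.1, 60.5 and 127 CPM in WT Tnpo3. Sgcd, the δ-sarcoglycan, ran from 10 to 12.5 CPM in those 3 libraries and from 7.71 to 8.95 CPM in the other 5 WT libraries. For the other 5 members the ranges of the 3 and the 5 libraries overlapped. The 3 libraries therefore touch each comparison with a WT group, and values are given with and without them.

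The comparison of P635L Ctr with WT Ctr asks what the mutation did to the complex. Of the 8 members 1 was called changed, the δ-sarcoglycan gene Sgcd, which fell; of all genes tested 14.2% were called (edgeR quasi-likelihood test, Benjamini-Hochberg adjusted p under 0.05), and 7.14% were called lower. Sgcd stood at 7.71, 12.5, 8.41 and 11.7 CPM in WT Ctr and at 6.4, 6.1, 7.64 and 7.48 CPM in P635L Ctr. Every mutant library lay below every WT library, though by little for the lowest WT value. The fitted log2 fold change was -0.54 (SE 0.15, edgeR adjusted p = 0.0212), or 0.686 times the WT level. The call ended without any 1 of WT Ctr replicate 2 (adjusted p = 0.1), WT Ctr replicate 4 (0.0678), P635L Ctr replicate 1 (0.0762) or P635L Ctr replicate 2 (0.0916). With the 3 libraries rich in ENSMUSG00000119584 left out, Sgcd stood at -0.19 (edgeR adjusted p = 0.441). It was also not called by edgeR in a fit of only the groups compared (adjusted p = 0.069). Nor was it called without the libraries with Xist above the Y-linked genes (0.0882) or with no low-count filter (0.0698).

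Sgca, the α-sarcoglycan gene, stood at 138, 142, 161 and 136 CPM in WT Ctr and at 95.4, 106, 121 and 111 CPM in P635L Ctr. These groups did not overlap either, and the log2 fold change was -0.41 (SE 0.14) with an edgeR adjusted p of 0.052, just past the threshold. The authors' deposited DESeq2 table gives Sgca a log2 difference of 0.40 in favour of WT with an adjusted p of 0.00481. In the same table Sgcd has a difference of 0.53 in favour of WT with an adjusted p of 0.0403. Both stand among 13.4% of its listed genes under 0.05. Without the 3 libraries rich in ENSMUSG00000119584 Sgca was called lower, at -0.43 (edgeR adjusted p = 0.0412). Sgca, and not Sgcd, was called lower in the fit of only the groups compared (edgeR adjusted p = 0.0255), beside 14% of all genes. The same held without the libraries with Xist above the Y-linked genes (edgeR adjusted p = 0.0281), beside 15.5% of all genes. DESeq2 called Sgca and Sgcd lower, beside 18.2% of all genes. Sgcb, the β-sarcoglycan gene, also lay lower in all 4 mutant libraries (137 to 165 against 171 to 185 CPM), with a log2 fold change of -0.20 (SE 0.16, adjusted p = 0.439). So 3 of the 8 members had groups that did not overlap, all lower and all sarcoglycans, where 19.1% of all genes had such groups and 9.43% were lower in every mutant library.

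Dag1 and Sspn had positive log2 fold changes, 0.26 (SE 0.15) and 0.12 (SE 0.13), with edgeR adjusted p-values of 0.26 and 0.581. Dtna was at -0.09 (SE 0.16) and Utrn at -0.35 (SE 0.29), neither called. Dmd stood at -0.01, with an SE of 0.31 and an edgeR adjusted p of 0.986. This value turned with the 3 libraries. Without them the log2 fold change of Dmd was 0.82 (SE 0.15, edgeR adjusted p = 0.0023), with 11.9% of all genes called in that fit. The P635L Ctr libraries held 51.1 to 65 CPM of Dmd, and the 2 WT Ctr libraries that then remain held 32.1 and 34 CPM. Utrn turned too, to 0.34 (adjusted p = 0.168), and 2 members were called, Dmd higher and Sgca lower. With 2 libraries left in WT Ctr, the spread rests on the other groups.

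The median log2 fold change of the members was -0.15, against -0.05 over all genes tested. It turned to 0.13 without the 3 libraries, with 4 members positive and 4 negative, against 0.02 over all genes. Beside these values, the summed level of 7 cardiomyocyte markers was 69400 to 79200 CPM in WT Ctr and 48600 to 51600 CPM in P635L Ctr, with 3 of the 7 called lower and 0 called higher. The summed level of 5 fibroblast markers was 625 to 907 CPM in WT Ctr and 1070 to 1570 CPM in P635L Ctr, and 5 of 5 were called higher. The summed level of 5 skeletal muscle markers was 0.784 to 1.48 CPM and 9.64 to 12.5 CPM, nearly all of it Tnnt3, while Myh4 was at 0 in 14 and Myf6 in 15 of the 16 libraries. The part of these shifts in the member values was not tested, and in ventricle tissue fewer cells of a type and less RNA per cell cannot be told apart.

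The comparison of P635L Tnpo3 with P635L Ctr asks what the Tnpo3 virus did in mutant hearts. Of the 8 members 1 was called, the dystroglycan gene Dag1, which fell; of all genes tested 3.88% were called and 2.25% were called lower. Dag1 stood at 248, 283, 282 and 327 CPM in P635L Ctr and at 200, 188, 209 and 180 CPM in P635L Tnpo3. The groups were well apart, and the log2 fold change was -0.55 (SE 0.15, edgeR adjusted p = 0.0451), or 0.682 times the level with the control virus. Sgcb showed the same size of difference, from 137, 153, 159 and 165 CPM to 109, 102, 109 and 96.4 CPM. Its log2 fold change was -0.56 (SE 0.16) with an edgeR adjusted p of 0.0586. Sspn stood at 143, 168, 161 and 186 CPM in P635L Ctr and 126, 131, 127 and 110 CPM in P635L Tnpo3. Its log2 fold change was -0.41 (SE 0.13, adjusted p = 0.0791).

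Dmd stood at 56.1, 55.9, 65 and 51.1 CPM in P635L Ctr and at 44.8, 32.9, 43.1 and 37.3 CPM in P635L Tnpo3, again without overlap. Its log2 fold change was -0.53, yet its SE was 0.31 because the fit takes the spread from all 16 libraries, and the adjusted p was 0.389. Dtna was at -0.34 (SE 0.16, adjusted p = 0.262), with groups that overlapped. Thus 4 of the 8 members (Dmd, Dag1, Sgcb and Sspn) were lower in every P635L Tnpo3 library, where 20.4% of all genes had groups without overlap and 11% were lower in every library. Sgca (0.27, SE 0.14) and Sgcd (0.22, SE 0.15) had positive log2 fold changes with overlapping groups and adjusted p-values of 0.299 and 0.467. Sgca stood at 136, 118, 152 and 118 CPM with the Tnpo3 virus. Its mean there, 131 CPM, lay between those of P635L Ctr (108 CPM) and WT Ctr (144 CPM). Utrn had a fitted difference of 0 (SE 0.29), at 55.3 to 73.5 CPM with the control virus and 55.7 to 74.3 CPM with Tnpo3.

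The count of calls in this comparison followed the samples that set the spread. In a fit of the 8 P635L libraries alone, 5 members were called lower: Dmd (edgeR adjusted p = 0.00571), Dag1 (0.00149), Sgcb (0.000695), Sspn (0.00705) and Dtna (0.0294), with the same fold changes to 2 decimals, and 15.9% of all genes were called in that fit. Without the 3 libraries rich in ENSMUSG00000119584, none of which is a P635L library, Dmd, Dag1, Sgcb and Sspn were called lower, beside 7.59% of all genes. With all 16 libraries, the Dag1 call ended when any 1 P635L library or WT Ctr replicate 3 was left out, with edgeR adjusted p-values from 0.0529 to 0.161 and log2 fold changes from -0.59 to -0.48. DESeq2 called Dag1, Sgcb and Sspn lower, beside 7.97% of all genes.

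The median log2 fold change of the members was -0.37, against 0.01 over all genes tested. The summed fibroblast markers were 705 to 960 CPM in P635L Tnpo3 against 1070 to 1570 CPM in P635L Ctr, with 4 of 5 called lower. The summed cardiomyocyte markers were 51100 to 60800 CPM against 48600 to 51600 CPM, and 0 of 7 were called. The part of the fibroblast shift in the member values was not tested.

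**Figure D2:**
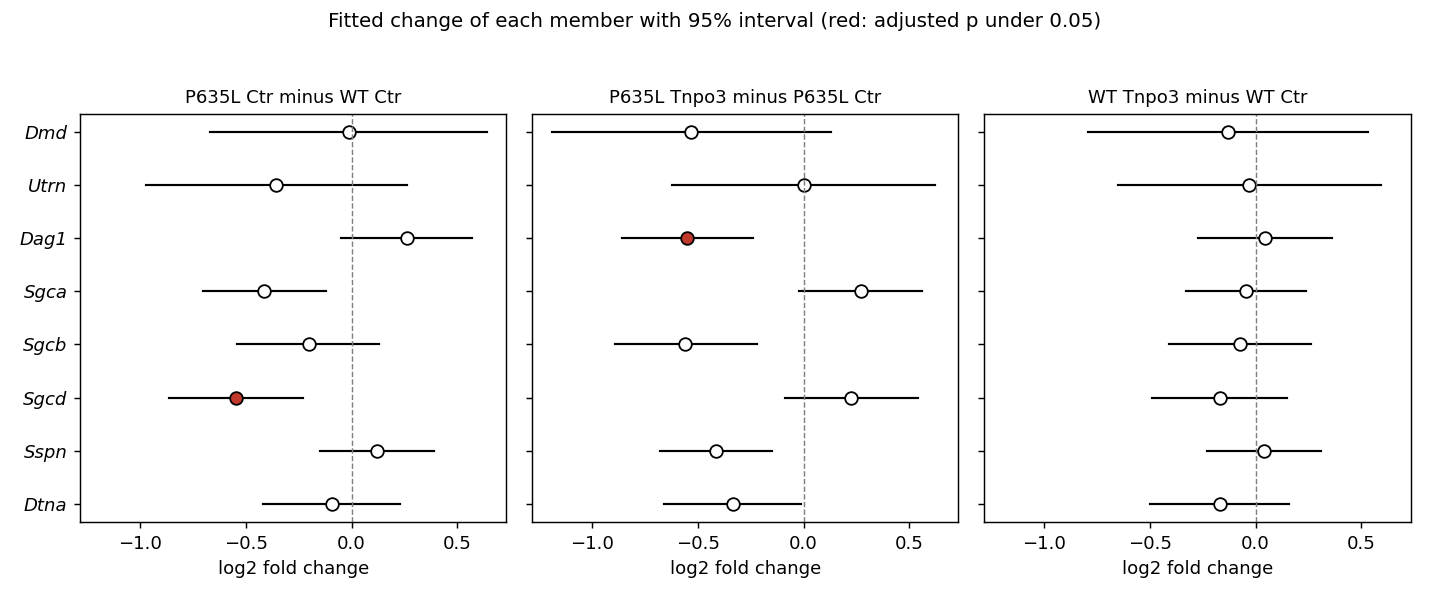
Fitted log2 fold change of each member (x axis) with its 95% interval in 3 comparisons, red where the edgeR adjusted p was under 0.05. Sgcd is called in P635L Ctr minus WT Ctr, Dag1 in P635L Tnpo3 minus P635L Ctr, and the intervals of Dmd and Utrn are the widest in each panel.

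In WT hearts the Tnpo3 virus changed none of the 8 members by this test, beside 0.00536% of all genes called and 597 genes at an unadjusted p under 0.05. DESeq2 called 0 members as well, beside 0.0215% of genes, and none had groups without overlap, as 1.09% of all genes did; the authors' deposited table lists 0.0122% of genes under 0.05. The members' log2 fold changes ran from -0.17 for Sgcd and Dtna to 0.05 for Dag1, each with an edgeR adjusted p of 1, and 6 of the 8 were negative. Without the 3 libraries all 8 were positive, with a median of 0.19 against 0.02 over all genes, and again none was called. With all 16 libraries the 95% intervals were -0.79 to 0.53 for Dmd and -0.27 to 0.36 for Dag1. The interval of the Dag1 fall in mutant hearts, -0.86 to -0.24, overlaps that of Dag1 in WT hearts. The WT Tnpo3 libraries spread widely, with Dag1 at 321, 271, 199 and 189 CPM and Sgcb at 173, 226, 168 and 103 CPM.

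Whether the virus acted differently in the 2 genotypes was tested as an interaction, the virus effect in P635L minus that in WT. None of the members was called, beside 0.504% of all genes and 2321 genes at an unadjusted p under 0.05, and DESeq2 called 0 members beside 2.36% of genes. The interaction was -0.60 (SE 0.21) for Dag1, -0.45 (SE 0.18) for Sspn and -0.48 (SE 0.23) for Sgcb, with edgeR adjusted p-values of 0.242, 0.314 and 0.39. Without the 3 libraries rich in ENSMUSG00000119584, Dmd was called at -0.90 (SE 0.20, edgeR adjusted p = 0.0384), beside 1.65% of all genes, and Dag1 and Sgcb each had an adjusted p of 0.0548. Without WT Tnpo3 replicate 4 alone, Sgcb was called, beside 1.16% of all genes.

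Set against WT Ctr, hearts of P635L Tnpo3 mice had negative log2 fold changes for all 8 members, with a median of -0.34 against -0.05 over all genes. With the 3 libraries left out, 5 members stayed negative and the median was -0.14, against 0.01 over all genes. This comparison shares its WT Ctr libraries with the first and its P635L Tnpo3 libraries with the second. Sgcb was called and fell, to 0.591 times the WT Ctr level (log2 fold change -0.76, SE 0.16, edgeR adjusted p = 0.0124), beside 3.07% of all genes called and 1.58% called lower. Its 4 P635L Tnpo3 values, 96.4 to 109 CPM, lay well below the 171 to 185 CPM of WT Ctr. Dag1 (-0.29, SE 0.15) and Dtna (-0.43, SE 0.16) were also lower in all 4 libraries, with edgeR adjusted p-values of 0.314 and 0.15; 11.7% of all genes had groups without overlap and 6.92% were lower in every library. DESeq2 called Sgcb too, beside 6.1% of genes. In the authors' deposited table of this comparison Dtna has an adjusted p of 0.049 and Sgcb of 1.22e-13, among 4.75% of listed genes under 0.05. The Sgcb call ended without P635L Tnpo3 replicate 4 (adjusted p = 0.054).

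The genes whose CPM were most like those of the called members over the 16 libraries were taken from 12489 genes whose log2 CPM averaged 1 or more. For Dag1 these were Mtfr1 (Pearson r = 0.963), Cap2 (0.962) and Atf6 (0.96). For Sgcb they were Prpf19 (0.921), Crnkl1 (0.895) and Pgm5 (0.879), and for Sgcd Syt7 (0.948), Lyrm9 (0.932) and Daam1 (0.918). The 16 points share groups, libraries and depth, so these values describe the libraries only.

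Around the members, a wider list of the pathway was counted by role. Sgce, the sarcoglycan gene that takes the place of Sgca outside striated muscle, rose in P635L Ctr against WT Ctr, from 16.3 ± 1.33 to 21.4 ± 0.656 CPM (SD, n = 4; log2 fold change 0.40, edgeR adjusted p = 0.0163). Without the 3 libraries rich in ENSMUSG00000119584 its adjusted p was 0.0581. In P635L Tnpo3 against P635L Ctr it had a log2 fold change of -0.28 (adjusted p = 0.163), lower in every library. Of the 5 syntrophin and β-dystrobrevin genes tested, 0 were called in any of the comparisons, in which up to 14.2% of all genes were called.

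Of 8 cytoplasmic partners tested, 1 fell with the mutation and 1 fell with the Tnpo3 virus in mutant hearts. Of all genes tested, 7.14% were called lower in the first comparison and 2.25% in the second. Ank2, encoding the ankyrin that places ion transporters and dystrophin at the membrane, went from 99 ± 21.3 to 70.4 ± 6.05 CPM (SD, n = 4; log2 fold change -0.49, edgeR adjusted p = 0.0189). Its call ended without the 3 libraries rich in ENSMUSG00000119584 (-0.24, adjusted p = 0.222) and without any 1 of WT Ctr replicates 2 and 4 or P635L Ctr replicates 1, 2 and 4 (adjusted p from 0.0535 to 0.0807). Sync, encoding syncoilin, an intermediate filament protein that binds α-dystrobrevin, went from 8.51 ± 1.43 CPM in P635L Ctr to 4.34 ± 0.712 CPM in P635L Tnpo3 (log2 fold change -0.97, edgeR adjusted p = 0.00664). It was also called lower in P635L Tnpo3 against WT Ctr (-0.80, edgeR adjusted p = 0.0239), a call that ended without the 3 libraries (-0.38, adjusted p = 0.366) and without any 1 of WT Ctr replicates 2 and 4 or P635L Tnpo3 replicates 2 and 3 (adjusted p from 0.0708 to 0.111).

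Among 6 matrix ligands, 2 rose with the mutation and the same genes fell with the Tnpo3 virus in mutant hearts, comparisons that share the P635L Ctr libraries. Of all genes tested, 7.07% were called higher in the first comparison and 2.25% lower in the second. Lama2, the laminin chain that α-dystroglycan binds in muscle, stood at 103 ± 6.11 CPM in WT Ctr, 108 ± 11.1 in WT Tnpo3, 175 ± 11.1 in P635L Ctr and 112 ± 7.31 CPM in P635L Tnpo3 (SD, n = 4). It rose by a log2 fold change of 0.76 (edgeR adjusted p = 4.05e-05) and fell by 0.65 (adjusted p = 0.00104). Bgn, encoding biglycan, a matrix proteoglycan that binds sarcoglycans and dystroglycan, stood at 287 ± 49.9, 309 ± 32.9, 759 ± 171 and 428 ± 135 CPM in the same order. It rose to 2.65 times the WT Ctr level (edgeR adjusted p = 0.000155), and its fall of -0.83 (adjusted p = 0.0295) lost its call in 6 of the fits that left out 1 P635L library. The fibroblast markers moved in the same directions, as given above, and their part in these values was not tested.

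Among genes for the sugar chain of α-dystroglycan, B3galnt2, a sugar transferase, rose in P635L Ctr against WT Ctr by a log2 fold change of 0.46 (edgeR adjusted p = 0.0159), from 19.7 to 27.1 CPM on average, and Pomt1, which starts the chain, was called at -0.40 with an adjusted p of 0.0498. The Pomt1 call is at the threshold, and leaving out any 1 library other than WT Tnpo3 replicate 1 or 4 ended it (edgeR adjusted p from 0.0538 to 0.171). Pomgnt1, also on this list, fell in P635L Tnpo3 against P635L Ctr, from 77.5 ± 6.52 to 55 ± 2.26 CPM (log2 fold change -0.50, edgeR adjusted p = 0.0168). That call ended without P635L Ctr replicate 4 (adjusted p = 0.0682) or P635L Tnpo3 replicate 2 (0.0553) or 3 (0.0567).

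RBM20 acts on splicing, so every event of the members was read from the splicing tables. They give inclusion, the share of transcripts that keep the exon, from junction reads for 4 libraries per group, without saying which library stands at which position. The 48 member events comprised 41 skipped exons, 5 pairs of mutually exclusive exons, 1 alternative 3′ splice site, 1 alternative 5′ splice site and 0 retained introns, and 26 of them stood in all 3 tables. Dmd had 20 events, Dtna 11, Dag1 5, Sgca 4, Utrn and Sgcd 3 each, Sgcb 2 and Sspn 0. None was called in any comparison. A call needed an rMATS false discovery rate (FDR) under 0.05, a shift in inclusion of 0.1 or more, and junction reads averaging 10 or more over the libraries of each group. By that rule 2.52% of all events were called in P635L Ctr against WT Ctr, 0.941% in WT Tnpo3 against WT Ctr and 2.11% in P635L Tnpo3 against WT Ctr, and the members had 27, 32 and 27 events with enough reads. In P635L Tnpo3 against P635L Ctr, where edgeR was run on the junction reads, 0.302% of all events were called. Only 4 of the 28 listed member events had enough reads of both forms for that test.

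Most member exons were kept in nearly all transcripts. In P635L Ctr against WT Ctr, 23 of the 27 events with enough reads had mean inclusion over 0.95 or under 0.05 in both groups, and the median absolute difference was 0.011, against 0.013 over all events. The most read event of Sgca, its exon 7, ran from 0.984 to 1 over the 16 libraries with a mean of 1296 junction reads. Exon 3 of Sgcb ran from 0.988 to 1 with 618.1 reads, exon 74 of Dmd from 0.846 to 1 with 146.9 reads, and exon 2 of Dag1 from 0.966 to 1 with 24.2 reads. Exon 3 of Sgcd (0.967 to 1) and exon 6 of Dtna (0.9 to 1) were each listed for 8 libraries. The exact permutation p-values of these events over the 70 assignments of 8 libraries lay at 0.114 or above in every comparison. Exon numbers come from GENCODE M21 on GRCm38 by matching exon and intron lengths, which placed 31 of the 41 skipped exons, while coordinates are those of the deposited tables on GRCm39.

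Dystrophin and utrophin both have a short exon of 39 bases near the start of their C-terminal part, shown because it is the most read event of Utrn and has a Dmd counterpart of equal length. They are exon 71 of Dmd, chrX:84188517-84188555 on the plus strand, and exon 67 of Utrn, chr10:12291195-12291233 on the minus strand. Both are coding and keep the reading frame when skipped. Capitals mark the bases at which they differ, sequences are 5′ to 3′ in the direction of transcription.
Dmd exon 71: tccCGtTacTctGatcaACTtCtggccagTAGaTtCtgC
Utrn exon 67: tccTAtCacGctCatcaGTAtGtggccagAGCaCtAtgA
The exons are identical at 24 of 39 positions (61.5%). Inclusion of the Utrn exon ran from 0.89 to 1 over the 16 libraries, and the exact permutation p was 1 in each comparison.

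Exon 78 of Dmd, the last but one of the 79 exons, was the single member event with an rMATS FDR under 0.05, and it was singled out after its values were seen. Of all events, 6.17% had such an FDR in P635L Ctr, 2.12% in WT Tnpo3 and 5.1% in P635L Tnpo3, each against WT Ctr. It lies at chrX:84241110-84241141 on the plus strand, holds 32 coding bases and is known as an exon that is skipped in embryonic and some non-muscle dystrophins. Its length is not a multiple of 3, so skipping shifts the reading frame at the end of the protein. In the transcript Dmd-203 the last base of exon 77 begins a codon. Counted from that codon, 14 codons remain when exon 78 is kept and 32 when it is skipped. The sequences at this junction show what is lost, with exon 78 in capitals.
Dmd exon 77: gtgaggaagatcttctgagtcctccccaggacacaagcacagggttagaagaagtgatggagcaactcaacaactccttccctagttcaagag
Dmd exon 78: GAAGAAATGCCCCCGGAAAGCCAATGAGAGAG
Dmd exon 79, coding part: gacacaatg

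Inclusion of exon 78 was 0.891, 1, 0.95 and 0.978 in WT Ctr and 0.876, 0.896, 0.857 and 0.889 in WT Tnpo3. It was 0.892, 0.907, 0.924 and 0.887 in P635L Ctr and 0.984, 0.947, 0.888 and 0.901 in P635L Tnpo3. WT Ctr was highest on average, but its lowest library overlapped the other groups. The difference to WT Ctr was -0.052 in P635L Ctr (rMATS FDR 0.0345, exact permutation p = 0.114) and -0.075 in WT Tnpo3 (FDR 0.0451, exact permutation p = 0.0571), both under the size of 0.1 needed for a call. The edgeR test on the same reads gave adjusted p-values of 0.598 and 0.999. P635L Tnpo3 differed from P635L Ctr by 0.027 (edgeR adjusted p = 0.805, exact permutation p = 0.314). The skipped form rested on 0 to 18 reads per library.

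Exon 24 of Dtna, also singled out after its values were seen, had the largest difference of the member events with a mean of 10 or more junction reads in each group. This exon of 49 bases is coding in part and lies just before the last exon of the longest α-dystrobrevin form, at chr18:23786386-23786434. Inclusion was 0.372, 0.452, 0.615 and 0.396 in P635L Ctr and 0.147, 0.356, 0.096 and 0.103 in P635L Tnpo3, a difference of -0.283. The highest P635L Tnpo3 value, 0.356, lay just below the lowest P635L Ctr value, 0.372. It was not called (edgeR adjusted p = 0.399). In WT Ctr inclusion was 0.342, 0.206, 0.206 and 0.58, from 3 to 11 junction reads per library, a range that overlaps both mutant groups. In WT Tnpo3 it was 0.757, 0.474, 0.257 and 0.58, on average 0.183 above WT Ctr (rMATS FDR 0.458), so the difference with the Tnpo3 virus had the opposite sign in WT hearts; whether the 2 differences differ was not tested. P635L Tnpo3 libraries had 5 to 18 reads of the event.

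**Figure D3:**
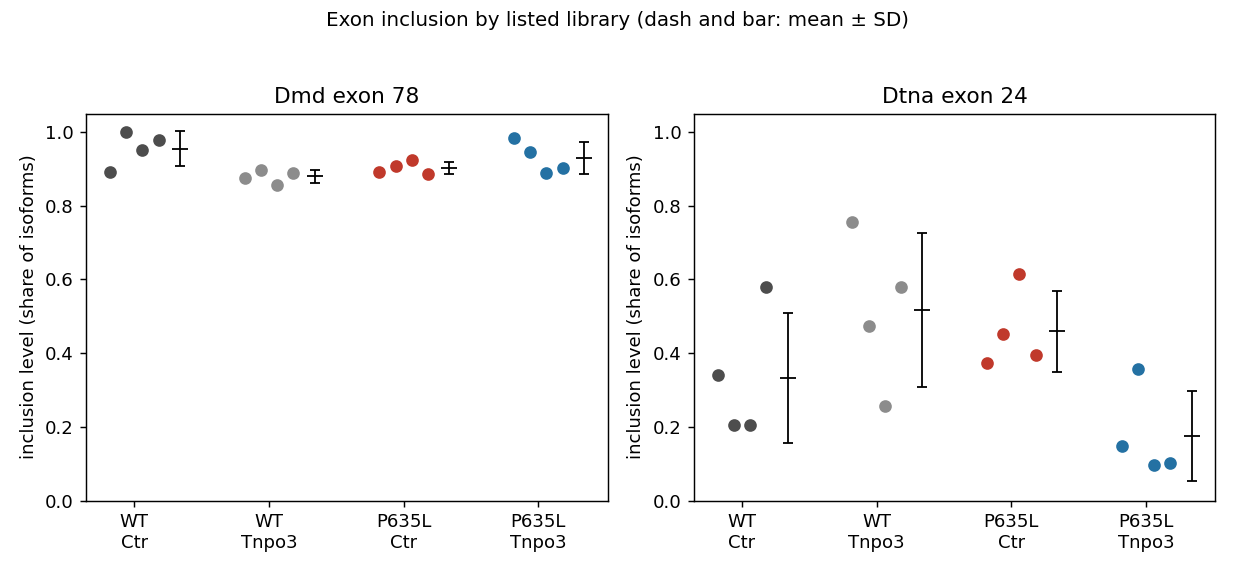
Inclusion level (y axis, 0 to 1) of Dmd exon 78 and Dtna exon 24 in the 4 groups (x axis), with 1 point per listed library and the group mean ± SD. Dmd exon 78 stays at 0.857 or above in all 16, while Dtna exon 24 spreads from 0.096 to 0.757.

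Junction reads were also uneven along the Dmd transcript. Dystrophin is made from a very long transcript, and the gene also has internal promoters whose short products share its 3′ end. Inclusion junction reads were compared between 4 skipped-exon events in the 5′ part (exons 12, 18, 42 and 52) and 5 events in the 3′ part (exons 71 to 78), all listed in the 3 tables. The 3′ event at chrX:84193819-84193884 averaged only 1.8 to 4.8 reads in the less read group of each comparison. The other 3′ events averaged 43.2 or more, so this event pulls the 3′ mean down and the ratios up. The mean reads per 5′ event divided by the mean per 3′ event were 0.189, 0.767, 0.082 and 0.793 in WT Ctr and 0.156, 0.116, 0.197 and 1.6 in WT Tnpo3. They were 0.165, 0.138, 0.45 and 0.124 in P635L Ctr and 0.452, 0.0726, 0.299 and 0.117 in P635L Tnpo3. So 2 of the 4 WT Ctr positions and 1 of the 4 WT Tnpo3 positions stood apart with high ratios, which is also the number of libraries in each group with high Dmd counts. The tables do not tie positions to libraries, so the part of this ratio in the Dmd counts was not tested. In the mutant groups the ratio was 0.219 ± 0.155 in P635L Ctr and 0.235 ± 0.175 in P635L Tnpo3 (SD, n = 4), which overlap, beside the lower Dmd counts of the latter.

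Utrn was read at its 3 events, and the plot of reads along the transcripts shows 2 of them. Reads of the shorter form at an alternative 5′ splice site in the 5′ part were 1, 16, 3 and 41 in WT Ctr and 2, 5, 8 and 21 in WT Tnpo3. Reads at exon 67 near the 3′ end were 22, 31, 41 and 68 in WT Ctr and 34, 33, 27 and 62 in WT Tnpo3. At the third event, nearest the start, reads were 0, 3, 1 and 27 in WT Ctr and 0, 3, 0 and 11 in WT Tnpo3. The same positions, 2 and 4 in WT Ctr and 4 in WT Tnpo3, had the most 5′ reads for both genes.

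**Figure D4:**
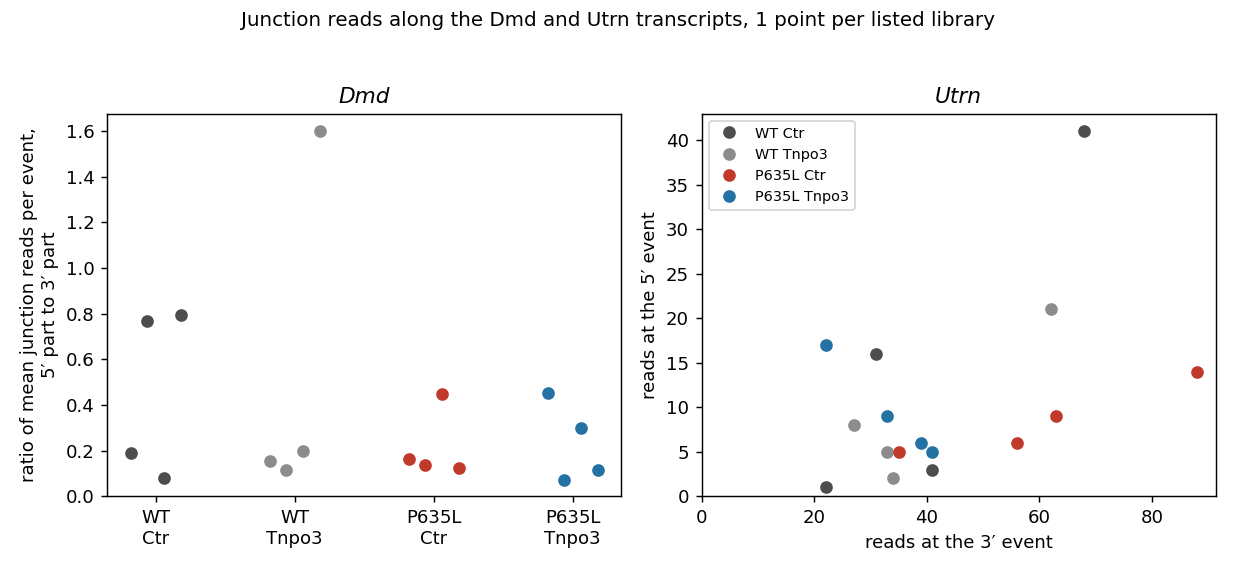
Left, ratio of mean junction reads per event between the 5′ and the 3′ part of Dmd (y axis) by group; right, reads at the 5′ event (y axis) against reads at the 3′ event (x axis) of Utrn, with 1 point per listed library and colours for the 4 groups. For Dmd, 2 WT Ctr points near 0.8 and 1 WT Tnpo3 point at 1.6 stand above the remaining 13, which reach 0.452 at most.

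Events of the wider pathway were called in 4 genes in P635L Ctr against WT Ctr. For the cytoplasmic partners 3 of 22 tested events were called, and for the sugar-chain genes 2 of 38. Among 9 events of other sarcoglycans, 12 of syntrophins and β-dystrobrevin and 34 of matrix ligands, 0 were called. Of all events tested, 2.52% were called. An exon of Ank2 was kept less (mean inclusion 0.142 in WT Ctr and 0.032 in P635L Ctr, rMATS FDR 0.0267), and 2 overlapping versions of an exon of Ank3 were kept more (0.008 and 0.15 for the longer one, FDR 6.75e-05). Introns of the O-mannosyltransferase genes Pomt2 (0.096 and 0.278, FDR 0.027) and Pomt1 (0.121 and 0.286, FDR 0.0329) were retained more. The Pomt1 intron was retained less in P635L Tnpo3 than in WT Ctr (0.017 against 0.121, FDR 0.0159), and a Lama2 exon was kept less in WT Tnpo3 than in WT Ctr (0.853 against 0.959, FDR 0.0166). Of all events tested, 2.11% and 0.941% were called in these comparisons. The Ank2 event and the Pomt1 event in P635L Tnpo3 each had a mean of 10 junction reads, the minimum for a call. In P635L Tnpo3 against P635L Ctr 0 events of the pathway lists were called, beside 0.302% of all events tested.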

How the data were processed

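The members and all lists were chosen with earlier results of these data known. Raw counts per gene were deposited by the authors, who used STAR 2.7.9a, featureCounts 2.0.6 and GRCm39 per the submitters' processing notes; whether strand was used is not given in the sources used here, and antisense genes share exon bases with Sspn (69) and Dtna (90). The authors' DESeq2 tables hold log2 fold changes and adjusted p-values. The authors' rMATS tables hold junction read counts, inclusion levels (a signal from 0 to 1), inclusion differences (a score) and a p-value with its FDR, per the file headers.

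Gene counts went into edgeR 4.0.16 under R 4.3.3 (quasi-likelihood test, TMM, filterByExpr, 1 mean per group over 16 libraries, 12 residual degrees of freedom), two-sided, with Benjamini-Hochberg adjustment over 18662 genes. Alternatives used DESeq2 1.42.0 and limma 3.58.1. On simulated counts the test recovered 13.4% of 1.4-fold, 83.6% of 2-fold and 95.5% of 4-fold changes between P635L Tnpo3 and P635L Ctr (18360 genes, 3.03% of calls false).

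For junction reads in the mutant comparison, the planned edgeR test made no call when tried on data with known answers, so at least 40 reads of each form over the 8 libraries were required; it then found 1% of inclusion shifts of 0.2 and 50% of those of 0.4 (10853 events). Named are all members, pathway genes called in a comparison, the 3 genes most like each called member and the most read event of each member. All 4 mice per group are separate animals, per the labels. Exact permutation tests of 4 against 4 cannot go below 0.0286. Some results of the wider pathway lists are not reported here.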

Additional observations from a re-analysis of the deposited data

Results flagged for a closer look

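Utrn in WT Tnpo3 had 1 library far from the other 3, at 127 CPM against 57.1 to 65.6 CPM; it is replicate 4, in which ENSMUSG00000119584 held 22.7% of counts. The ratio of 5′ to 3′ junction reads of Dmd had 1 position far from the others in WT Tnpo3 (1.6 against 0.116 to 0.197) and 1 in P635L Ctr (0.45 against 0.124 to 0.165). These 3 came from 44 groups of 4 values looked at, and chance alone flags about 1 in 20. The effect of the Tnpo3 virus on Lama2 differed between the genotypes, with an interaction of -0.71 on the log2 scale (SE 0.14, edgeR adjusted p = 0.0241), which 7 of the fits that left out 1 library brought to between 0.0521 and 0.0718.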

How the results depend on the processing

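The call rests on few members, and its count moved. In some fits the count stayed but the member called changed, as given above for Sgcd and Sgca. In P635L Ctr against WT Ctr 1 member was called (14.2% of all genes), 2 with upper-quartile factors (14.7%), 2 with DESeq2 (18.2%), 2 without the libraries over 10% ENSMUSG00000119584 (11.9%), 0 with no low-count filter (6.11%), and 0 to 2 when 1 library was left out (9.48% to 16.5%). In P635L Tnpo3 against P635L Ctr 1 was called (3.88%), 3 with DESeq2 (7.97%), 2 with no low-count filter (1.7%), 5 with only the groups compared (15.9%), 4 without the libraries over 10% ENSMUSG00000119584 (7.59%), 2 without those with Xist above the Y-linked genes (6.6%), and 0 to 2 when 1 library was left out (1.48% to 5.37%). P635L Tnpo3 against WT Ctr gave 0 to 1 without 1 library (1.48% to 3.86%), and the interaction gave 1 without the libraries over 10% (1.65%) and 0 to 1 without 1 library (0.273% to 1.16%). A smaller inclusion difference of 0.05 called 1 member event, Dmd exon 78, in P635L Ctr and in WT Tnpo3 against WT Ctr. Event positions carry no replicate number, and the rMATS FDR was kept as deposited when a position was left out. Where no value shows the cause of a shift, the cause was not tested.

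With a replicate block, 2 members were called in P635L Ctr against WT Ctr (13.3% of all genes) and 0 in P635L Tnpo3 against P635L Ctr (3.63%), where Dag1 had an adjusted p of 0.0616; Dmd in P635L Ctr against WT Ctr was then 0.08. Same-numbered libraries deviated together with correlations of -0.34 to 0.65, median -0.06, and 7 of 16 libraries correlated best with their own number, so the numbers were not taken as pairs.

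Some log2 fold changes turned, none of them called with all 16 libraries. Dmd in P635L Ctr against WT Ctr became 0.01 with upper-quartile factors, 0.04 with no low-count filter, 0.28 without the Xist libraries and 0.82 without the libraries over 10%. Without the latter, Utrn became 0.34 there; in WT Tnpo3 against WT Ctr Dmd became 0.37, Utrn 0.32, Sgca 0.06, Sgcb 0.12, Sgcd 0.13 and Dtna 0.01; in P635L Tnpo3 against WT Ctr Dmd went from -0.54 to 0.29, Utrn from -0.35 to 0.34 and Sgcd from -0.32 to 0.04; and the Utrn interaction became -0.32. Sgca in WT Tnpo3 against WT Ctr became 0.11 without the Xist libraries. Leaving out 1 library, Dmd in P635L Ctr against WT Ctr ranged from -0.21 to 0.24 and the Utrn interaction from -0.26 to 0.38. In WT Tnpo3 against WT Ctr the ranges were -0.46 to 0.12 for Dmd, -0.38 to 0.26 for Utrn, -0.11 to 0.15 for Dag1, -0.15 to 0.08 for Sgca, -0.23 to 0.10 for Sgcb and -0.05 to 0.11 for Sspn.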
